A study of Rattus norvegicus with 4 samples.

Results

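The neurotrophic factors and their receptors were examined in cultures of rat Schwann cells (SCs), which wrap and myelinate peripheral axons. With earlier results of these data known, 9 genes were chosen by name out of the 17949 genes counted by RNA-seq. They are the ligand genes Bdnf, Ntf3, Gdnf, Artn and Cntf and the receptor genes Ngfr, Ntrk2, Gfra1 and Ret. The cells were primary SCs of rat sciatic nerve, kept by both groups in medium with 10% FBS, 4 μM forskolin and 5 ng/ml heregulin-β1. They were infected for 48 h with a lentivirus that expresses the antisense RNA of the Egr2 promoter (Lenti-AS, n = 2) or with the backbone virus carrying GFP (Lenti-GFP, n = 2), and the comparison asks which genes differ once this RNA is expressed ectopically. The antisense RNA was cloned into a vector with a red fluorescent reporter, so the groups differ in the reporter as well as in the insert, and the 2 differences cannot be told apart. Each library is called a biological replicate, but no source states that the cultures came from separate animals, so the p-values measure the spread between these libraries only.

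Neurotrophic factors are secreted proteins that keep neurons alive and guide axon growth, and SCs of an injured nerve are a known source of them. Brain-derived neurotrophic factor (Bdnf) and neurotrophin 3 (Ntf3) bind Trk receptor kinases and the shared receptor p75NTR, which Ngfr encodes. Glial cell line-derived neurotrophic factor (Gdnf) and artemin (Artn) bind GPI-anchored GFRα co-receptors, which present them to the receptor kinase Ret, whereas ciliary neurotrophic factor (Cntf) acts through a complex of the interleukin-6 receptor family.

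The counts summed to between 74024323 and 96185890 per library, and they were scaled to counts per 1000000 counts (CPM) on library sizes corrected by edgeR's TMM method. Libraries of a group were not repeats of 1 library: the chi-square of their counts, divided by the number of genes, was 26.0 for Lenti-GFP and 83.1 for Lenti-AS, where sampling alone gives about 1. The SC markers S100b, Sox10 and Erbb3 were counted in every library, and the 10 SC markers summed to 9165 and 9089 CPM in Lenti-GFP, against 10843 and 9804 CPM in Lenti-AS. Gap43, which was on that list, had 21 and 25 counts in Lenti-GFP against 2 and 7 counts in Lenti-AS, at or below 0.264 CPM. Its log2 fold change was -2.10, and it was not called (adjusted p = 0.146 by edgeR). The Lenti-AS libraries differed from each other in the SC gene Sox10 (163 and 61.2 CPM) and in the collagen gene Col1a1 (2131 and 290 CPM). The fibroblast genes Dcn, Lum and Thy1, the macrophage genes Ptprc, Aif1, Itgam and Adgre1, the neuronal genes Snap25, Isl1 and Syt1, the endothelial gene Cdh5 and the pericyte gene Rgs5 had 12 counts or fewer in every library. Over whole lists the sums in Lenti-GFP and Lenti-AS were 3680 to 4104 and 2694 to 4333 CPM for 6 fibroblast genes, 299 to 314 and 236 to 242 CPM for 8 neuronal genes, 3.27 to 3.34 and 3.95 to 4.34 CPM for 6 macrophage genes, 20.5 to 20.6 and 15.1 to 15.8 CPM for 4 endothelial genes, and 244 to 270 and 232 to 288 CPM for 4 pericyte genes. Most of the fibroblast, neuronal and endothelial sums came from Col3a1 or Col1a1, Nefl or Nefm, and Tek. Of all these markers Mbp was called higher (log2 fold change 0.47) and Nefl lower (-0.46). The part of these markers in the differences below was not tested. In such bulk samples, fewer cells of a type and less RNA per cell cannot be told apart. No row is assigned to the lentiviral antisense RNA, and the labels were therefore not checked by it. The strand setting of the counts is not given, and whether reads of this RNA entered the Egr2 row was not tested. Egr2 itself, which is on the SC list, had 49.2 and 42.1 CPM in Lenti-GFP against 61.2 and 54.0 CPM in Lenti-AS, higher in both Lenti-AS libraries but not called (log2 fold change 0.33, adjusted p = 0.152 by edgeR). Globin genes had high counts in Lenti-AS 2 alone (Hbb 125355, against 140 to 323 in the other libraries), and leaving them out moved no member's call. Leaving out these rows acts on the members only through the scaling and the shared variance estimates. Whether other RNA entered Lenti-AS 2 along with the globin RNA was not tested.

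The 250 bases before the annotated start are shown for 3 members whose values behaved differently, namely Gfra1 (the receptor with the smallest unadjusted p, higher in both Lenti-AS libraries), Cntf (the ligand with the smallest unadjusted p, lower in both) and Gdnf (whose groups overlapped). They were taken from RefSeq on the GRCr8 build, which is not the rn6 build of the counts, at chr1:267555812-267556061 on the minus strand for Gfra1, chr1:219314536-219314785 on the minus strand for Cntf and chr2:58621077-58621326 on the plus strand for Gdnf. They are written 5′ to 3′ in lower case, and capitals mark a match to the AP-1 motif TGANTCA, searched because the study follows AP-1 factors.
Gfra1: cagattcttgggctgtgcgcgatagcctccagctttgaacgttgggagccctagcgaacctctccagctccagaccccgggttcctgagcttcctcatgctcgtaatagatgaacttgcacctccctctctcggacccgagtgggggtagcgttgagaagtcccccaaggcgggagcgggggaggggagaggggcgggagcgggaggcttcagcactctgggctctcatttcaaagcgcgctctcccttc
Cntf: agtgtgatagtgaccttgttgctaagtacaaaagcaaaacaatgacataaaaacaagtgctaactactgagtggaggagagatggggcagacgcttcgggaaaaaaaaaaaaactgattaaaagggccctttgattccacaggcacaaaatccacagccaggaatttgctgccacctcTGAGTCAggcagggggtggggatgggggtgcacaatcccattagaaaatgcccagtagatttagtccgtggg
Gdnf: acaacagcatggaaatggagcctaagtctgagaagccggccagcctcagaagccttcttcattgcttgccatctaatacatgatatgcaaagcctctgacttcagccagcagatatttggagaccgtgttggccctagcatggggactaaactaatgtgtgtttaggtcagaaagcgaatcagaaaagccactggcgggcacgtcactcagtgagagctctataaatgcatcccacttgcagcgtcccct
The AP-1 letters were found on either strand in 6.34% of 33469 such windows, and among the 14 windows of the 7 members that the table holds they were found in Cntf, starting 72 bases before the start, and in 1 of 6 Bdnf windows, starting 152 bases before it. The motif GCGNGGGCG of the EGR family was present in 4.29% of all windows and in 1 member, Artn, which held no AP-1 match. A match describes these letters and no site. Ngfr and Ntrk2 have no entry in the table.

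None of the 9 members was called differentially expressed. Calls were made by edgeR's quasi-likelihood test at an adjusted p (Benjamini-Hochberg, over all 12446 genes tested) under 0.05 with a fold change of at least 1.3, and 246 genes, or 1.98% of those tested, met them. Of the 9 members, 7 passed the filter of 10 counts in 2 libraries, while Ntf3 and Ret did not and were not tested. Before adjustment, 3 of the 7 had a p under 0.05 (Gfra1, Ngfr and Cntf), against 21.8% of all genes tested. With no fold cut-off 0 members passed as well, against 2.18% of all genes. DESeq2 also called 0 members, against 5.04% of all genes, although Gfra1 and Ngfr had adjusted p-values under 0.05 there with folds below 1.3 (2 of 7 members, against 10.6% of all genes at any fold). DESeq2 gave Artn no adjusted p, and genes without one are counted as not passing in these DESeq2 counts and shares. Both Lenti-AS libraries lay above both Lenti-GFP libraries for 2 tested members, Gfra1 and Ngfr (27.7% of all genes tested), and below them for 2, Cntf and Bdnf (27.2%), so that the groups did not overlap for 4 of 7 members against 54.9% of all genes tested. With 2 libraries against 2, an exact permutation test (two-sided) cannot give a p under 0.333.

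**Figure D1:**
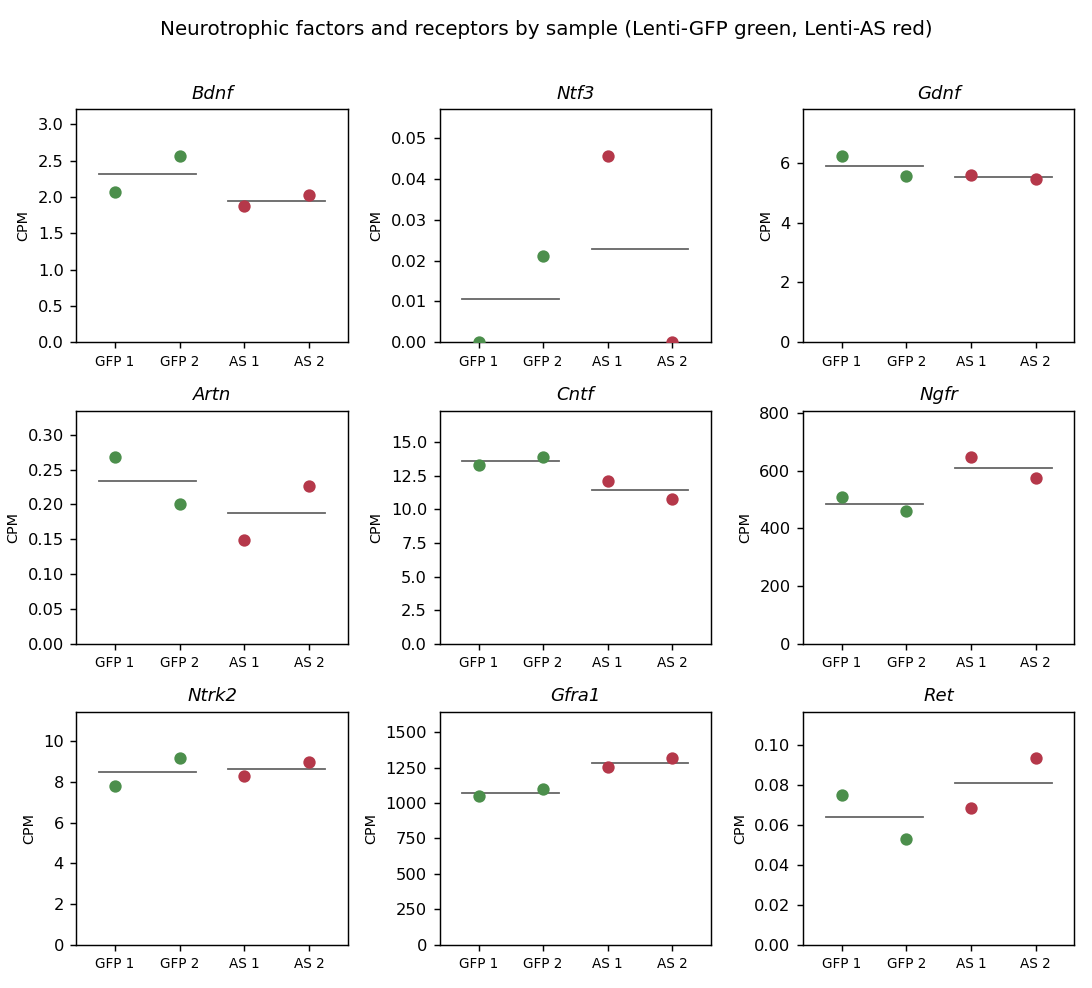
CPM of each of the 9 genes (y axis, linear and from 0) in the 2 Lenti-GFP (green) and 2 Lenti-AS (red) libraries on the x axis, with a line at each group mean. The groups are apart for Gfra1 and Ngfr (higher in Lenti-AS) and for Cntf and Bdnf (lower), they overlap for the others, and Ntf3 and Ret stay below 0.1 CPM in every library.

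Among the ligands, Cntf, a survival factor for motor neurons that myelinating SCs are known to store, had 13.3 and 13.9 CPM in the Lenti-GFP libraries and 12.1 and 10.8 CPM in the Lenti-AS libraries. The Lenti-AS libraries were the lower ones, but the 1.19 CPM between the nearest libraries of the groups was less than the 1.37 CPM between the Lenti-AS libraries. Its log2 fold change was -0.25 (standard error 0.10, 95% interval -0.50 to -0.0025), with an unadjusted p of 0.0484 and an adjusted p of 0.225 by edgeR's quasi-likelihood test. Over the alternatives that kept all libraries the log2 fold change was -0.25 to -0.22. Their adjusted p ran from 0.225 (edgeR with another scaling) to 0.452 (likelihood ratio test). Without Lenti-AS 1 the log2 fold change was -0.34, from a fit with Lenti-AS 2 as the lone Lenti-AS library. In the GRCr8 annotation Cntf lies next to Zfp91, a zinc finger gene from which transcripts reading through into Cntf are known in other mammals. Zfp91 had 284 and 287 CPM in Lenti-GFP against 256 and 257 CPM in Lenti-AS (log2 fold change -0.15, adjusted p = 0.161), and whether its reads entered the Cntf count was not tested.

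Bdnf, which supports sensory and motor neurons and is regarded as a repair SC gene, had 2.07 and 2.56 CPM in Lenti-GFP against 1.87 and 2.02 CPM in Lenti-AS, from 152 to 243 counts per library. The gap between the groups was 0.045 CPM against 0.496 CPM between the Lenti-GFP libraries. The log2 fold change of -0.25 (standard error 0.20, 95% interval -0.75 to 0.25, adjusted p = 0.505) had an interval that ran from 0.595-fold to 1.19-fold. Bdnf has several promoters, and all of its transcripts share the single row.

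Gdnf, a potent survival factor for motor neurons, had 6.22 and 5.54 CPM in Lenti-GFP against 5.58 and 5.47 CPM in Lenti-AS. The groups overlapped. Gdnf had a log2 fold change of -0.0904 (standard error 0.13, 95% interval -0.42 to 0.24, adjusted p = 0.729), so the interval reached from 0.748-fold to 1.18-fold. Artn, which acts on sensory and sympathetic neurons, had only 25, 19, 13 and 17 counts in Lenti-GFP 1, Lenti-GFP 2, Lenti-AS 1 and Lenti-AS 2, or 0.268, 0.200, 0.148 and 0.226 CPM. Its groups overlapped too, and its log2 fold change of -0.33 (standard error 0.44, adjusted p = 0.696) had an interval of -1.42 to 0.75, or 0.375-fold to 1.68-fold, too wide at this depth to show a difference of either sign. Ntf3, the ligand that SCs are known to use in autocrine support, had 0 and 2 counts in Lenti-GFP and 4 and 0 counts in Lenti-AS. A count of 0 allows a level of up to 0.0321 CPM (Lenti-GFP 1) or 0.0399 CPM (Lenti-AS 2), taking 3 counts per library as the limit for counting error only. Summed over libraries Ntf3 had 2 counts (exact Poisson 95% interval 0.242 to 7.22) and 4 counts (1.09 to 10.2), and a difference was not detectable at this depth.

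Among the receptors, Gfra1, the co-receptor that binds Gdnf, had 1049 and 1096 CPM in Lenti-GFP against 1255 and 1314 CPM in Lenti-AS, from 97939 to 109997 counts per library. Both Lenti-AS libraries were higher, and the 159 CPM between the groups exceeded the 46.8 and 59.2 CPM within them. In the edgeR fit the log2 fold change was 0.26 (standard error 0.056, 95% interval 0.12 to 0.40), a fold of 1.20 with an adjusted p of 0.0813. It was 0.00159 by DESeq2 and 0.0712 by limma-voom, and over 15 alternatives the adjusted p ran from 0.00159 to 0.502 while the log2 fold change kept to 0.23 to 0.29. The interval ends at 1.32-fold. Of 10253 genes averaging 1 CPM or more, those closest to Gfra1 in their centred log2(CPM + 0.5) values over the 4 libraries were Atp6v1b2, Plekhg1 and Praf2, at Euclidean distances of 0.0175, 0.0193 and 0.0206.

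Ngfr, which encodes p75NTR and marks SCs without myelin and repair SCs, had 509 and 462 CPM in Lenti-GFP against 648 and 576 CPM in Lenti-AS. The groups did not overlap, but the 66.6 CPM between them was less than the 71.9 CPM between the Lenti-AS libraries. Ngfr had a log2 fold change of 0.33 (standard error 0.081, 95% interval 0.14 to 0.53), a fold of 1.26 with an adjusted p of 0.10. DESeq2 gave an adjusted p of 0.00331 and limma-voom gave 0.0974. Over the alternatives that kept all libraries the largest adjusted p was 0.153, by the likelihood ratio test. Without Lenti-AS 2 the log2 fold change was 0.42, and without Lenti-AS 1 it was 0.25, each from a fit with a lone Lenti-AS library.

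Ntrk2 encodes TrkB, the Bdnf receptor, of which glia are known to make mainly a form without the kinase domain, and its forms share the single row. It had 7.82 and 9.16 CPM in Lenti-GFP against 8.30 and 9.01 CPM in Lenti-AS. The Lenti-AS libraries lay between the Lenti-GFP libraries (log2 fold change 0.027, standard error 0.13, 95% interval -0.29 to 0.34, adjusted p = 0.924). Ret, the kinase through which the GFRα co-receptors signal within a cell, had 7 and 5 counts in Lenti-GFP and 6 and 7 counts in Lenti-AS. Summed over libraries Ret had 12 counts (exact Poisson 95% interval 6.20 to 21.0) and 13 counts (6.92 to 22.2), intervals that cover counting error only. Ret thus stayed at or below 0.0931 CPM in every library. Levels of different genes are not compared, since no transcript lengths of the files' annotation were used here.

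**Figure D2:**
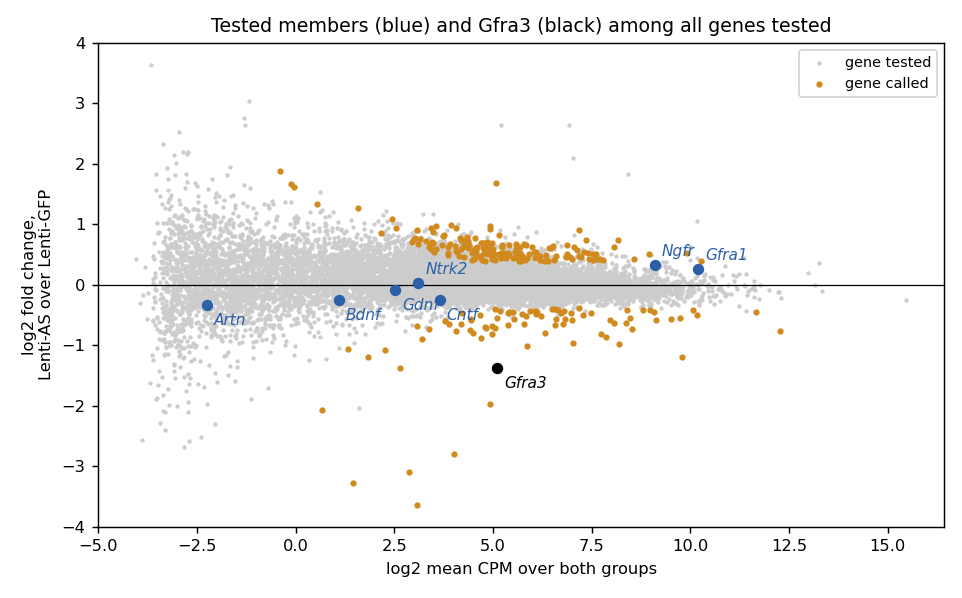
Fitted log2 fold change of Lenti-AS over Lenti-GFP (y axis) against log2 mean CPM (x axis) for the genes tested (grey) and called (orange), with 8 genes outside the y axis. The 7 tested members (blue) lie between -0.33 and 0.33, and the pathway gene Gfra3 (black) stands at -1.38.

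Around the members, 8 lists of other genes of these pathways, also chosen with earlier results known, were read from the same fit. Together they hold 117 genes, of which 105 were tested, and 1 was called, Gfra3, which fell in Lenti-AS. No gene of the lists was called higher. Across all genes tested, 1.31% were called higher and 0.667% lower. Before adjustment 30 of the 105 genes had a p under 0.05, 15 higher and 15 lower, against 21.8% of all genes tested, and the median log2 fold change was 0.036 against 0.0071 over all genes tested.

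Gfra3 encodes GFRα3, the co-receptor that binds artemin. It had 50.4 and 48.3 CPM in Lenti-GFP against 19.2 and 18.8 CPM in Lenti-AS, from 4707, 4581, 1679 and 1417 counts. The libraries of each group lay close together and the groups far apart. Its log2 fold change was -1.38 (standard error 0.066, 95% interval -1.54 to -1.22), so that the Lenti-GFP level was 2.60 times the Lenti-AS level, with an adjusted p of 0.00385 by edgeR's quasi-likelihood test. Its unadjusted p was number 2 from the smallest among 12446 genes, and its fall was number 8 in size among the 83 genes called lower. The log2 fold change kept to -1.41 to -1.34 over 15 alternatives, with adjusted p-values from 1.23e-48 to 0.0659. The adjusted p missed the threshold only without Lenti-GFP 1 (0.0536) and without Lenti-GFP 2 (0.0659).

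Of the GDNF family list 8 of 10 genes were tested, with a median log2 fold change of 0.063 that includes Gfra3, and the other 7 were not called. Gfra2, the co-receptor for neurturin, had 24.8 and 26.6 CPM in Lenti-GFP against 22.9 and 16.7 CPM in Lenti-AS (log2 fold change -0.37, adjusted p = 0.221), and Gfra4 had 5.31 and 3.12 against 3.04 and 4.80 CPM (log2 fold change -0.11, adjusted p = 0.873). The neural cell adhesion molecule Ncam1, an alternative Gdnf receptor that is also on the repair list, had 652 and 700 against 764 and 833 CPM (log2 fold change 0.24, adjusted p = 0.129), and the syndecan Sdc3, which binds Gdnf, 133 and 120 against 155 and 137 CPM (log2 fold change 0.21, adjusted p = 0.229). Since Gfra3 and Gfra1 bind different ligands and stood on opposite sides, their counts were also set against each other within each library, a measure chosen after the values had been seen and free of any scaling between libraries. Per 1000 counts of Gfra1 there were 48.1 and 44.1 counts of Gfra3 in Lenti-GFP and 15.3 and 14.3 in Lenti-AS, or 46.1 ± 2.80 and 14.8 ± 0.652 (SD, n = 2 each). The ratio of the groups was 3.11, with an exact permutation p of 0.333 (two-sided), the smallest possible. With Gfra3 lower and Gfra1 higher in both Lenti-AS libraries, the ratio had to separate the groups, so this p adds no evidence.

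**Figure D3:**
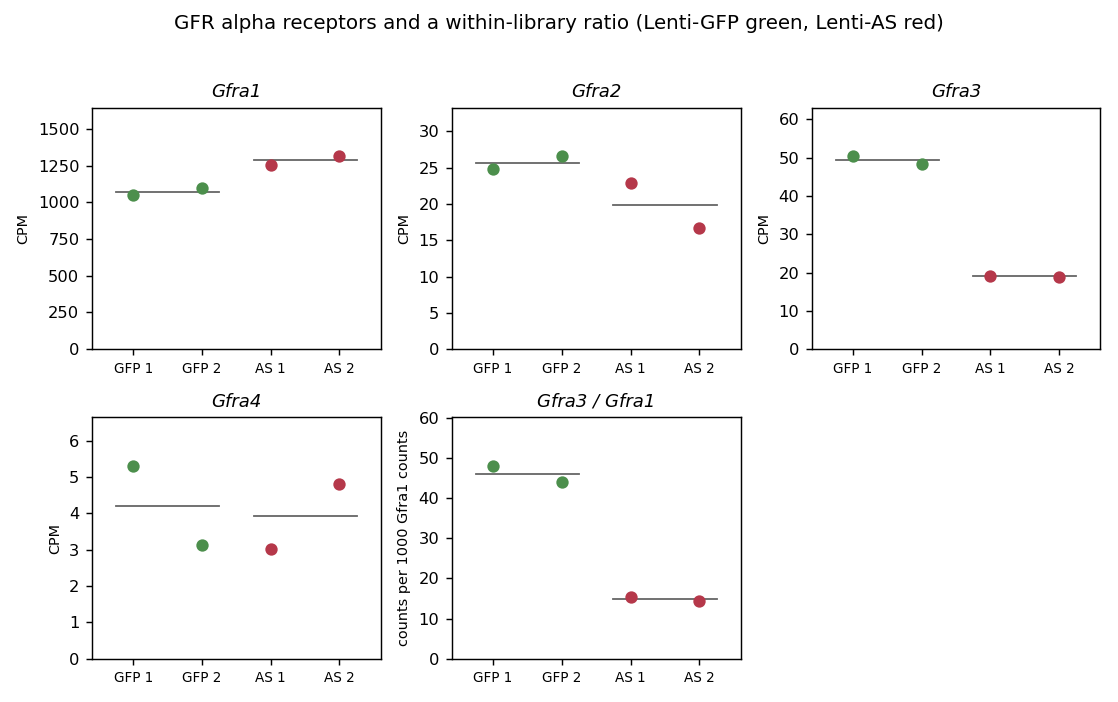
CPM of Gfra1, Gfra2, Gfra3 and Gfra4 and the ratio of Gfra3 to Gfra1 within a library (y axes, linear and from 0) in each library (x axis; Lenti-GFP green, Lenti-AS red), with a line at each group mean. Gfra3 stands at a mean of 49.4 CPM in the Lenti-GFP libraries and of 19.0 CPM in the Lenti-AS libraries. Gfra2 is also lower in both Lenti-AS libraries, and the Gfra4 values overlap. The ratio separates the groups, as it had to with Gfra3 lower and Gfra1 higher in both Lenti-AS libraries.

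In the list of other neurotrophins, Trk receptors and sortilins, 0 of 7 tested genes (of 9) were called by edgeR and 1 by DESeq2, 4 had an unadjusted p under 0.05 (21.8% of all genes tested did), and the median log2 fold change was 0.18. Of these 4, 3 were higher in Lenti-AS: Ntrk3, the receptor of Ntf3, with a log2 fold change of 0.33 (adjusted p = 0.102), Sorcs2, a partner of p75NTR, with 0.32 (adjusted p = 0.146), and sortilin, Sort1, which binds proneurotrophins with p75NTR, with 0.18 (adjusted p = 0.160 by edgeR). The Sorcs2 value rested in part on Lenti-AS 1, with 259 CPM there and 214 CPM in Lenti-AS 2, against 184 and 196 CPM in Lenti-GFP. The neurotrophin Ntf4 had 1 to 6 counts per library.

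In the CNTF and interleukin-6 list, 0 of 12 tested genes (of 13) were called by edgeR or DESeq2, and the median log2 fold change was -0.13. Il6st, which encodes the signal chain gp130 shared by this family, had 1809 and 1946 CPM against 1540 and 1591 CPM (log2 fold change -0.26, adjusted p = 0.0918 by edgeR and 0.00270 by DESeq2, with 0.00270 to 0.623 over the alternatives). Lif, a cytokine of injured nerve, had 19.9 and 16.8 against 14.5 and 15.9 CPM (log2 fold change -0.27, adjusted p = 0.223), and Il11, with 26 to 76 counts per library, -0.90 (adjusted p = 0.175). These 3 were among the 4 of 12 tested genes with an unadjusted p under 0.05 by edgeR, against 21.8% of all genes tested. All 4 were lower in Lenti-AS, as were 1166 of the 2716 such genes over the whole table. Lifr, the chain that pairs with gp130, was at 7.76 and 7.88 against 7.28 and 8.34 CPM.

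**Figure D4:**
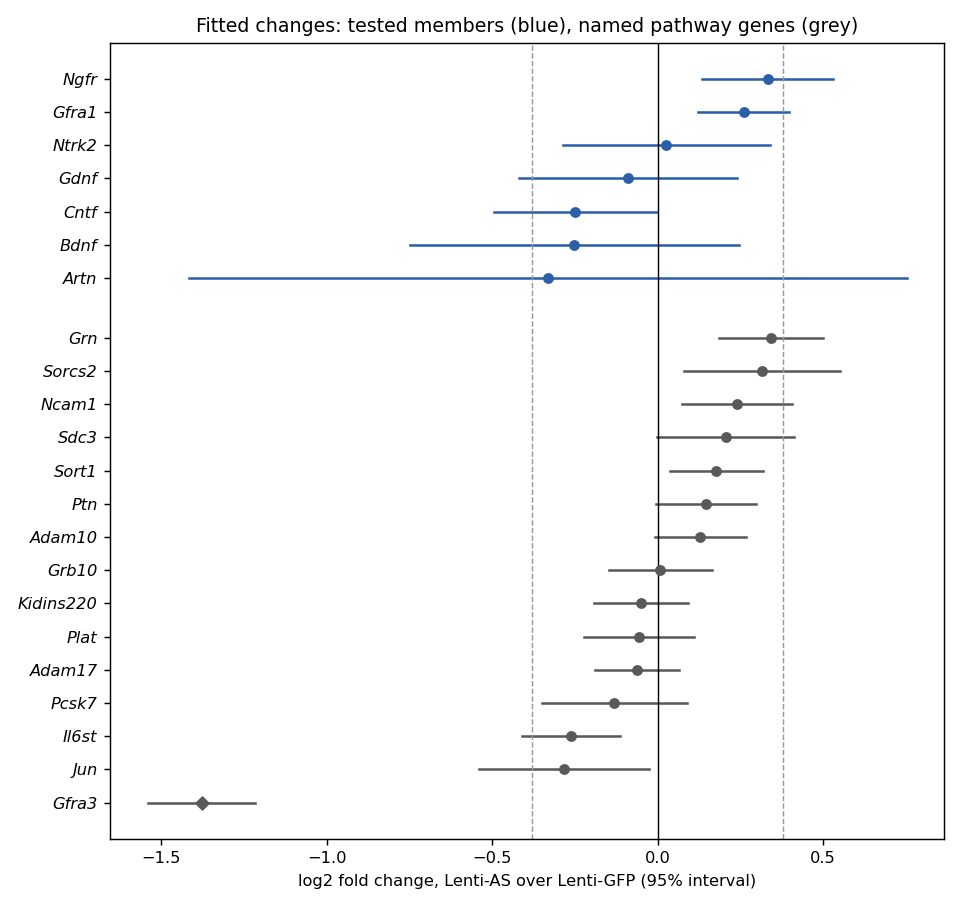
Fitted log2 fold change of Lenti-AS over Lenti-GFP (x axis, points) with its 95% interval (bars) for the 7 tested members (blue) and named genes of the pathway lists (grey), with dashed lines at a fold of 1.3 and a diamond for the called gene. Gfra3, at -1.38, is the only plotted gene whose whole interval lies beyond a dashed line. The intervals of Gfra1, Ngfr, Grn, Ncam1, Sorcs2 and Sort1 lie above 0, and those of Cntf, Il6st, Jun and Gfra3 lie below 0.

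In the other lists edgeR called 0 genes and DESeq2 called Tnfrsf19, Vegfb and Shh, 1 in each of 3 lists. An unadjusted p under 0.05 was found for 2 of 10 proneurotrophin processing genes, 5 of 16 partners of p75NTR, 5 of 24 Trk and RET signal adaptors, 2 of 15 other trophic factors and 6 of 14 other repair SC genes, against 21.8% of all genes tested. Of the proneurotrophin processing genes, 10 of 13 were tested (median log2 fold change -0.046), with Plat, the tissue plasminogen activator, at -0.056 (adjusted p = 0.666) and Pcsk7 at -0.13 (adjusted p = 0.430). Of 17 partners of p75NTR, 16 were tested (median 0.087), with the sheddases Adam17 at -0.062 (adjusted p = 0.520) and Adam10 at 0.13 (adjusted p = 0.247). All but 1 of 25 Trk and RET signal adaptors were tested (24, median 0.040), with Kidins220, a scaffold of Trk receptors, at -0.0496 (adjusted p = 0.653) and the adaptor Grb10 at 0.0087 (adjusted p = 0.952). Of 17 other trophic factors, 15 were tested (median 0.0697). Progranulin, Grn, had 453 and 465 CPM in Lenti-GFP against 554 and 609 CPM in Lenti-AS (log2 fold change 0.34, adjusted p = 0.0601 by edgeR and 1.68e-04 by DESeq2, with 1.22e-05 to 0.502 over the alternatives), and pleiotrophin, Ptn, had a log2 fold change of 0.15 (adjusted p = 0.238). All 14 other repair SC genes were tested (median 0.0898), with Jun, a regulator of the repair program that is known to drive Gdnf and Artn, at 1269 and 1139 CPM in Lenti-GFP against 895 and 1084 CPM in Lenti-AS (log2 fold change -0.28, adjusted p = 0.198).

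**Figure D5:**
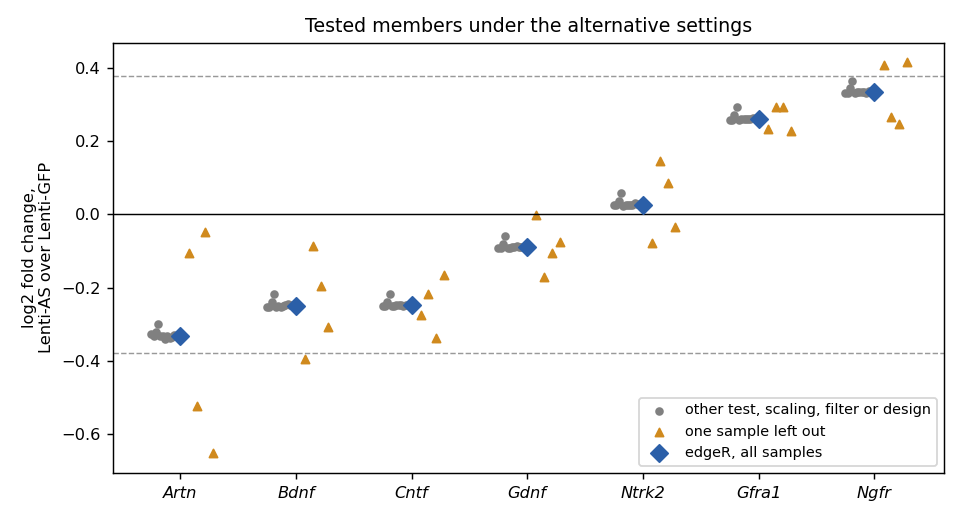
Log2 fold change of Lenti-AS over Lenti-GFP (y axis) of the 7 tested members (x axis) with edgeR on all libraries (blue diamonds), with other tests, scalings, filters or designs (grey) and with 1 library left out (orange triangles), and dashed lines at a fold of 1.3. The grey points stay near the diamonds, the values of Artn spread from -0.65 to -0.049 and only Ntrk2 crosses 0.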

How the data were processed

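RNA-seq of 4 libraries was analysed. The authors deposited counts of reads per gene, as whole numbers without normalization, from 50 bp paired-end reads summarized with featureCounts over RefSeq exons of rn6. The study's methods name hisat2 as the aligner and the submitters' processing notes name GSNAP. Versions, strand and multi-match settings are not given in the sources used here, so reads of a gene and of an overlapping antisense gene cannot be told apart. A row repeating the header (1) was dropped.

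Libraries were grouped by title. Genes that reached 10 counts in 2 or more libraries were fitted in edgeR 4.0.16 (R 4.3.3; TMM, glmQLFit with default settings, glmQLFTest, no replicate term) for Lenti-AS against Lenti-GFP. Standard errors came from the F statistic and 95% intervals from its degrees of freedom. Alternatives were DESeq2 1.42.0, limma-voom (limma 3.58.1), other scalings, filters, fits and cut-offs, a replicate block and leaving out a library. Scripts were tested on simulated counts. The members and lists were chosen with earlier results of these data known. Named genes were the members, the called genes and the 2 genes of highest mean CPM of each list, and the 3 nearest in pattern to the member of smallest p. Markers were named where they had 12 counts or fewer in every library, were called or were the highest of their list. Genes named after their values were seen included Gfra2, Gfra4, Ntrk3, Ntf4, Lif, Lifr, Il11, Cntfr, Vegfb, Shh, Tnfrsf19, Zfp91, Hbb, Egr2, Sox10 and Col1a1. The markers S100b, Erbb3, Gap43 and Nefm also fell outside these rules. Some genes that the rule or the lists name are not reported here. Listed genes without a row (Gas1, Rapgef1 and Ngfrap1, an older name of Bex3) were not analysed here.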

Additional observations from a re-analysis of the deposited data

How the results depend on the processing

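With 2 libraries per group and low counts for Artn, Ntf3 and Ret, changes of these 3 genes were beyond the depth. The tested members stayed uncalled in all alternatives except Ngfr without Lenti-AS 2, so that 0 members were called lower and 0 to 1 higher with 1 library left out. A fit that leaves out a library assumes that the lone library of a group varies like the other group.

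Across the table, 163 genes were higher and 83 lower, against 488 and 139 with DESeq2, 374 and 147 with the likelihood ratio test, 81 and 43 at a fold of 1.5 and 344 and 133 at an adjusted p under 0.10. With 1 library left out there were 0 to 1266 higher and 1 to 271 lower (0 and 1 without Lenti-GFP 1, 0 and 1 without Lenti-GFP 2, 570 and 271 without Lenti-AS 1, 1266 and 253 without Lenti-AS 2). The cause was not tested. The replicate numbers share no stated culture, and the deviations of same-numbered libraries were unrelated (correlation over genes -0.012). With a replicate block 3 genes were higher (2 shared) and 14 lower (14 shared), Gfra3 was still called and 0 members were.

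Of the lists, other settings added 1 lower gene to the neurotrophin list (DESeq2, the likelihood ratio test and an adjusted p under 0.10), 1 lower to the p75NTR list (Tnfrsf19; DESeq2 and an adjusted p under 0.10), 1 lower to the CNTF list without a fold cut-off, 1 higher to the trophic list (Vegfb; DESeq2) and, to the repair list, 1 higher (Shh; DESeq2, no low-count filter, the likelihood ratio test and an adjusted p under 0.10) and 1 lower (Gap43; the likelihood ratio test). With 1 library left out, called genes higher and lower were 0 to 1 and 0 to 1 in the neurotrophin list, 0 and 0 to 2 in the GDNF list, 0 to 1 and 0 in the CNTF list, 0 to 1 and 0 to 1 in the processing list, 0 to 3 and 0 to 1 in the p75NTR list, 0 to 1 and 0 in the adaptor list, 0 to 1 and 0 to 1 in the trophic list and 0 to 2 and 0 to 2 in the repair list, with every added gene called without a Lenti-AS library and Gfra3 lost without either Lenti-GFP library. With 1 library left out, uncalled values near 0 changed sign, with ranges of -0.079 to 0.15 for Ntrk2 (below 0 without Lenti-GFP 1, at -0.079, and without Lenti-AS 2, at -0.033), -0.14 to 0.023 for Plat and -0.053 to 0.078 for Grb10 (-0.053 without Lenti-GFP 1 and -0.013 without Lenti-AS 2). Member levels in CPM moved by less than their SD with library totals or without globin genes.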

Other observations

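Some genes around the members differed between the 2 Lenti-AS libraries by as much as between the groups. Cntfr, the Cntf receptor, had 0.911 and 0.781 CPM in Lenti-GFP, 2.22 CPM in Lenti-AS 1 and 1.04 CPM in Lenti-AS 2 (log2 fold change 0.95, adjusted p = 0.232 by edgeR's quasi-likelihood test). Vegfb, a member of the vascular endothelial growth factor family, had 3.27 and 3.23 CPM in Lenti-GFP, 8.92 CPM in Lenti-AS 1 and 4.47 CPM in Lenti-AS 2 (log2 fold change 1.05, adjusted p = 0.146). Shh, a hedgehog ligand made by repair SCs, was alike in both, with 15.0 and 12.4 CPM in Lenti-GFP and 19.7 and 21.9 CPM in Lenti-AS (log2 fold change 0.61, adjusted p = 0.0628 by edgeR and 6.14e-04 by DESeq2). Tnfrsf19, a relative of p75NTR, had 76.4 and 79.5 CPM in Lenti-GFP and 57.3 and 62.1 CPM in Lenti-AS (log2 fold change -0.39, adjusted p = 0.0628 by edgeR and 1.55e-04 by DESeq2).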
